A study of Mus musculus with 3 samples.

Results

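The 10 genes described here encode surface proteins by which stromal and progenitor cells are often recognised or sorted, among them 4 genes of the Ly6 family. They were Thy1, Ly6a, Ly6k, Ly6e, Ly6c1, Cd34, Cd82, Kit, Nt5e and Mcam. They were chosen by name, as the rows of the deposited expression table with these symbols, and 10 of 10 were found among the 18245 genes of the table. Messenger RNA was compared between 3 kinds of cultured cell of C57BL/6 mice, all labelled as from ventricle epicardium, the thin outer layer of the heart. CDC are cardiosphere-derived cells, which grow out of pieces of epicardium, form floating spheres and are replated as a monolayer. They came from mice of 6 weeks and were used at passage 3. CDC-EpiC are cells of 1 epithelial clone, picked from CDC after 2 weeks in 10 µM SB-431542, a blocker of signalling by the TGF-beta type I receptor. Their 3 libraries therefore hold no spread between clones, and clone and inhibitor cannot be told apart. Per the labels, mesenchymal cells had to be removed from such clones by timed trypsin digestion. pEpiC are primary epicardial cells, released from hearts of mice of 6 to 8 weeks with collagenase and trypsin and used at passage 3. No reporter or sort marks the cells of any kind.

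Each kind had 3 libraries, with 22008833 to 22756045 counts per library. The labels speak of separate samples, without saying whether these were separate animals or cultures, so p-values measure only the spread between these libraries, which may be technical. The epicardial genes of a list of 12 were all detected, but not evenly. Wt1, a transcription factor of the epicardium, had 202 to 250 counts in CDC, 1082 to 1252 in pEpiC and 2502 to 2998 in CDC-EpiC. Others went another way, and Krt19 was lower in pEpiC than in CDC (log2 change -4.90). At an adjusted p under 0.05 in edgeR, 7 of the 12 were higher and 5 lower in pEpiC than in CDC. Of all genes tested, 39.8% were higher and 38.5% lower. In CDC-EpiC against CDC, 9 were higher and 2 lower (34.2% and 34.6% of all genes). Macrophage markers summed to 339 to 974 CPM in pEpiC, to 73.0 to 74.5 CPM in CDC and to 30.3 to 33.0 CPM in CDC-EpiC, where CPM is a gene's counts scaled to library size with TMM factors. Ptprc, which marks all white blood cells, was at 355, 128 and 146 counts in pEpiC libraries 1, 2 and 3, at 0, 0 and 1 in CDC and at 0 in every CDC-EpiC library. In CDC library 3 the heart muscle gene Myh6 was at 0 counts, against 191 and 190 in the other CDC libraries.

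By way of background, the Ly6 proteins are small, cysteine-rich domains that most often sit on the outer leaflet of the membrane through a glycosylphosphatidylinositol (GPI) anchor. Thy1 (CD90) and Nt5e (CD73) are held by the same kind of anchor without being Ly6 proteins. Thy1 is a small immunoglobulin-like protein of fibroblasts, neurons and T cells that binds integrins, and Nt5e makes adenosine from extracellular AMP. Cd34 is a sialomucin, Cd82 a tetraspanin, Kit the receptor tyrosine kinase for stem cell factor (Kitl), and Mcam (CD146) an adhesion protein of endothelium and pericytes. Thy1, Ly6a (Sca-1) and Kit are commonly stained to describe cardiosphere-derived cells and other cells called cardiac progenitors.

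The 4 Ly6 genes lie on chromosome 15 (GRCm38.p6), all protein-coding. Ly6k occupies 74796874 to 74799968 on the minus strand, Ly6e 74955025 to 74959904 on the plus strand, Ly6a 74994877 to 74998031 on the minus strand and Ly6c1 75044018 to 75048920 on the minus strand, an interval of 252 kb in all. Thy1 and Mcam are near each other on chromosome 9, at 44043384 to 44048579 and 44134658 to 44142727, both on the plus strand. Nt5e lies on the same chromosome and strand at 88327609 to 88372089. Cd34 lies on chromosome 1 (194938821 to 194961292, plus strand), Cd82 on chromosome 2 (93419102 to 93462950, minus strand) and Kit on chromosome 5 (75574987 to 75656722, plus strand). The counts cover whole genes, so they do not tell which exons or untranslated ends were read.

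Reads of near-identical genes limit 2 of the 10. Of the 50-base windows of the longest Ly6c1 transcript, 36.7% occur also in transcripts of 2 other genes, mostly of Ly6c2 (31.7%). For Ly6a the share was 10.0%, spread over 4 genes. The other 8 genes had none. The estimated counts of Ly6c1 were not whole in 9 of 9 libraries and those of Ly6a in 8 of 9. Levels of Ly6c1 are therefore uncertain, although Ly6c2 itself was given only 0 to 2 counts per library.

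**Figure D1:**
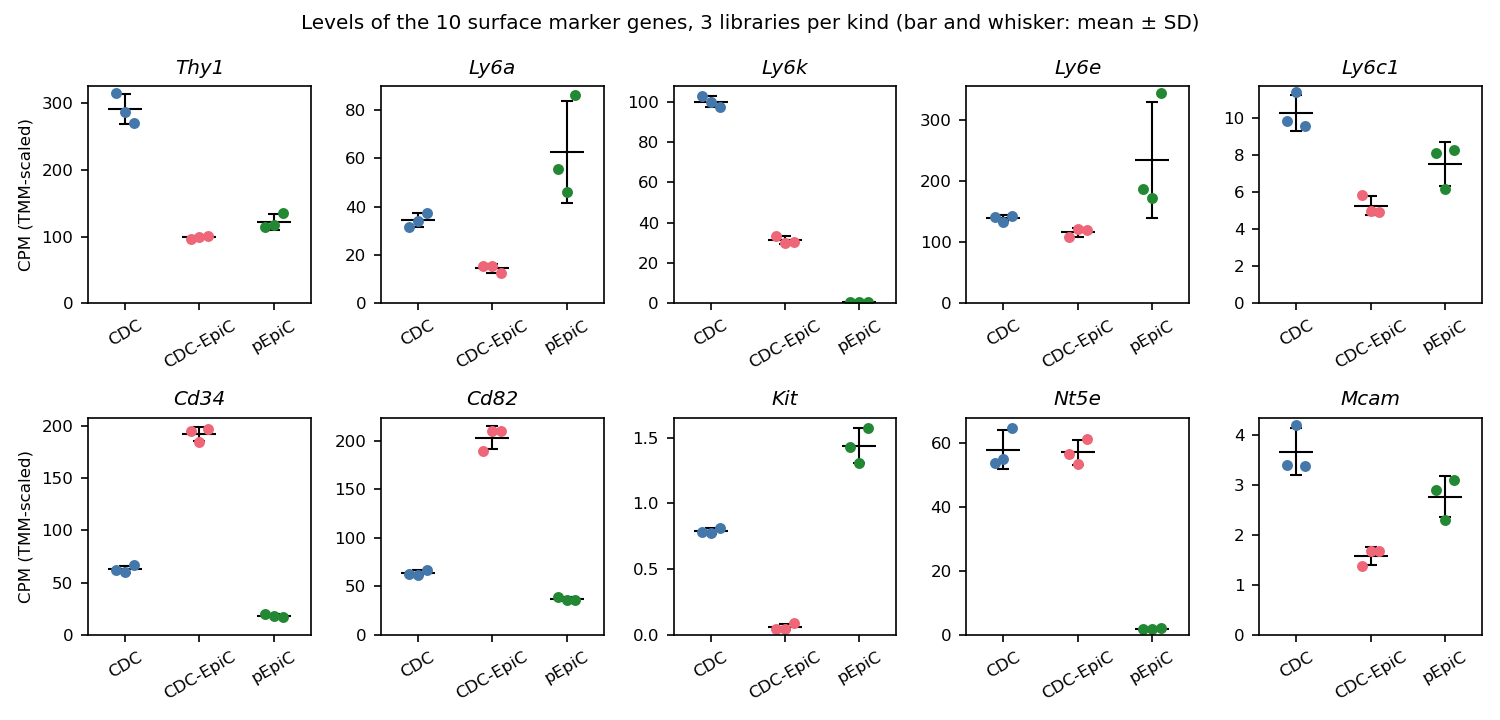
Levels of the 10 genes in CPM (TMM-scaled, linear axes from 0, one scale per gene) in the 3 CDC, 3 CDC-EpiC and 3 pEpiC libraries, each point a library, with the mean and SD as bar and whisker. Ly6k and Nt5e lie near 0 in pEpiC, Cd34 and Cd82 are highest in CDC-EpiC, and pEpiC library 3 stands above the other pEpiC libraries for Ly6a and Ly6e.

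Ly6k, known chiefly from testis and sperm, was the Ly6 gene with the widest differences. It was at 103, 99.7 and 97.2 CPM in CDC libraries 1, 2 and 3, at 33.4, 29.7 and 30.5 CPM in CDC-EpiC, and at 0.650, 0.610 and 0.700 CPM in pEpiC, where it rested on 15, 14 and 16 counts. The kinds did not overlap, and the order was CDC, CDC-EpiC, pEpiC. Ly6k was 156-fold lower in pEpiC than in CDC (log2 change -7.29 ± 0.09 SE, n = 3 and 3, adjusted p = 3.45e-11 by edgeR's quasi-likelihood test). The clone was 3.21-fold below CDC (-1.68 ± 0.08, adjusted p = 4.06e-11 in edgeR) and 47.3-fold above pEpiC (5.56 ± 0.12, adjusted p = 1.40e-10 in edgeR). With an offset for transcript length, the values were -6.28 for pEpiC against CDC, -1.61 for the clone against CDC and 4.66 for the clone against pEpiC, so the sizes of the differences from pEpiC depend on that choice. The clone held Ly6k RNA at a level between the other two kinds. In bulk RNA such as this, fewer cells of a type and less RNA per cell cannot be told apart.

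Ly6a encodes Sca-1, the antigen used to enrich mouse blood stem cells and many stromal progenitors. Its levels were 31.6, 34.1 and 37.4 CPM in CDC, 15.5, 15.2 and 12.4 CPM in CDC-EpiC and 55.3, 45.8 and 86.1 CPM in pEpiC. The order was pEpiC, CDC, CDC-EpiC without overlap, and pEpiC library 3 lay well above its 2 companions. Ly6a rose 1.76-fold in pEpiC against CDC (log2 0.82 ± 0.19 SE, adjusted p = 0.00296, edgeR). It was 2.40-fold lower in the clone than in CDC (-1.26 ± 0.10, adjusted p = 2.59e-08, edgeR) and 4.34-fold lower than in pEpiC (-2.12 ± 0.22, adjusted p = 7.66e-06, edgeR). Without pEpiC library 3 the first of these differences was 0.51 (adjusted p = 0.00147, edgeR) and the last -1.82.

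Ly6e, a widely expressed member whose RNA is induced by interferon, followed the same order. It was at 141, 133 and 143 CPM in CDC, at 108, 121 and 119 CPM in CDC-EpiC and at 186, 173 and 344 CPM in pEpiC. The clone lay just below CDC, and pEpiC library 3 was far above the other pEpiC libraries. The differences were 0.71 ± 0.22 for pEpiC against CDC (1.63-fold, adjusted p = 0.0121, edgeR), -0.27 ± 0.08 for the clone against CDC (adjusted p = 0.00563, edgeR) and -1.02 ± 0.22 for the clone against pEpiC (2.02-fold lower, adjusted p = 0.00173, edgeR), in log2 with SE. Without pEpiC library 3 they were 0.32 for pEpiC against CDC (adjusted p = 0.00369, edgeR) and -0.63 for the clone against pEpiC (adjusted p = 2.81e-05, edgeR). The clone's difference from CDC was the least stable of the 3: a single fit of all 9 libraries gave it an adjusted p of 0.222 in edgeR.

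The excess of pEpiC library 3 was shared by a wider group of genes. In pEpiC the coefficient of variation was 40.6% for Ly6e and 33.8% for Ly6a, against a median of 4.52% over all genes. Library 3 stood 1.91-fold above the mean of the other pEpiC libraries for Ly6e and 1.70-fold for Ly6a. Among 10609 genes of at least 5 CPM in pEpiC, 30 and 45 genes had a ratio at or above these. A list of 16 interferon-stimulated genes, chosen after these values had been seen, summed to 548, 619 and 1236 CPM in the pEpiC libraries, with 16 of 16 highest in library 3 (1.66 to 3.996 times the mean of the others, median 2.58). In CDC the list summed to 449, 499 and 775 CPM and 15 of 16 were highest in library 3, while Ly6a and Ly6e there spanned only 31.6 to 37.4 and 133 to 143 CPM. In the clone it summed to 247, 396 and 341 CPM, with 13 of 16 highest in library 2. Between kinds, 4 of the 16 rose, none fell and 12 were not called in pEpiC against CDC. Of all genes, 39.8% rose and 38.5% fell there. In the clone against CDC 10 fell and 1 rose (34.6% and 34.2% of all genes). The part of these genes in the differences of Ly6a and Ly6e was not tested.

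**Figure D2:**
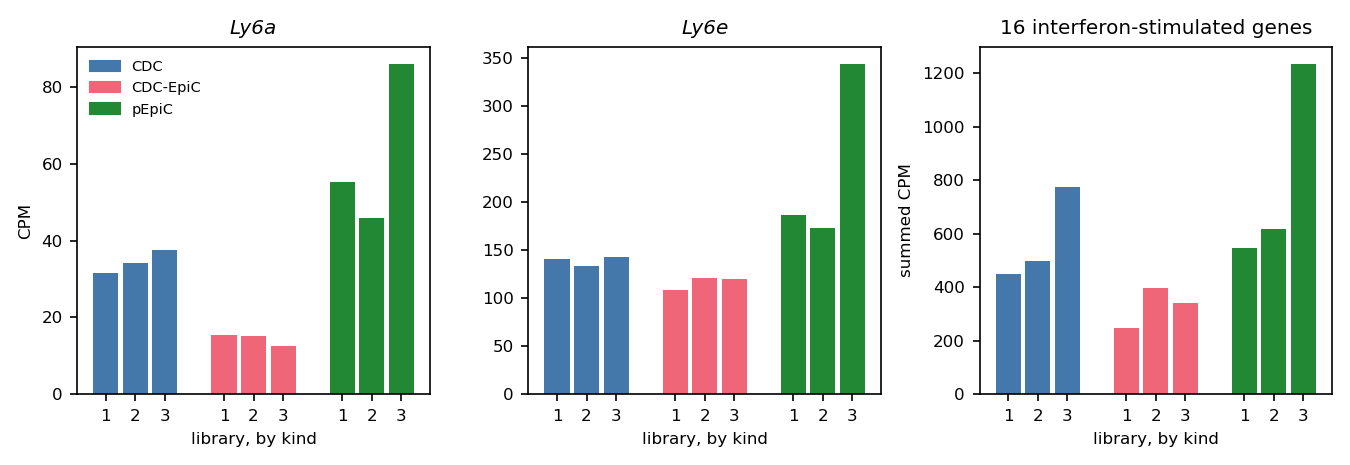
CPM of Ly6a and Ly6e and the summed CPM of 16 interferon-stimulated genes in each of the 9 libraries (bars from 0, colours by kind, libraries 1 to 3 from left to right). In pEpiC, library 3 is the highest bar of all 3 panels, with 86.1 CPM of Ly6a, 344 CPM of Ly6e and 1236 CPM of the list.

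Ly6c1, a marker of monocytes and small-vessel endothelium, was the lowest of the 4 Ly6 genes in CDC per length (21.89 TPM). Its levels were 9.82, 11.4 and 9.55 CPM in CDC, 5.84, 4.99 and 4.92 CPM in CDC-EpiC and 8.11, 6.14 and 8.27 CPM in pEpiC. Libraries of the 3 kinds did not overlap, yet the gap between CDC and pEpiC was small. Ly6c1 fell in the clone against CDC (log2 -0.97 ± 0.13 SE, 1.96-fold lower, adjusted p = 7.36e-06, edgeR) and was 1.43-fold lower in the clone than in pEpiC (-0.52 ± 0.15, adjusted p = 0.00882, edgeR). For pEpiC against CDC the change was -0.50 ± 0.14 (adjusted p = 0.00729, edgeR), and an offset for transcript length turned it to 0.46 (adjusted p = 0.00516, edgeR), so no direction is given for it. The same offset moved the clone against pEpiC to -1.38 (adjusted p = 7.80e-06, edgeR), and log2(TPM + 1) gave -0.83 (adjusted p = 9.14e-05, limma). Ly6a and Ly6c1 have short transcripts (effective lengths of 942 and 821 bases), as has Ly6k (752 bases).

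The rest of the Ly6 family was mostly silent. Of 41 family genes listed, 32 were in the table, and 8 passed the count filter for pEpiC against CDC, 10 for the clone against CDC and 11 for the clone against pEpiC, the 4 members included. Cd59a, which shields cells from complement, had 526, 465 and 496 counts in pEpiC, 0, 0 and 1 in CDC and 0 in all CDC-EpiC libraries. It was at least 484-fold higher in pEpiC than in the clone, taking a floor of 3 counts over the group. Plaur, the urokinase receptor, was highest in CDC (54.0 to 63.6 CPM) and fell in pEpiC (log2 -1.60) and in the clone (-1.42). Its level in the clone against pEpiC (0.14, adjusted p = 0.314, edgeR) did not pass the test. Ly6f was a gene of the clone, with 35, 27 and 26 counts against 4, 5 and 2 in CDC and 1, 0 and 1 in pEpiC (45.1 times the pEpiC sum, exact 95% interval 12.1 to 378). Lypd6 had 37, 25 and 30 counts in the clone, 0, 0 and 1 in CDC and 2, 3 and 2 in pEpiC. The median log2 changes of the tested family genes were -0.50, -0.62 and 0.14 for pEpiC against CDC, the clone against CDC and the clone against pEpiC, where all genes had 0.02, 0.00 and -0.02. In the family as tested, 3 genes rose and 5 fell for pEpiC against CDC, 4 rose and 6 fell for the clone against CDC, and 5 rose, 5 fell and 1 was not called for the clone against pEpiC. Of all genes, 39.8% rose and 38.5% fell in the first, 34.2% and 34.6% in the second and 40.3% and 41.5% in the third. Cd59a passed the filter only through pEpiC, and Ly6f and Lypd6 only through the clone. Their directions were thus fixed wherever they were tested, which limits these counts and medians.

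Genes around the 4 Ly6 genes were examined out to 500 kb on either side of their interval. The annotation has 51 genes there, of which 20 are in the table and 16 are not members. Lynx1, a Ly6 protein that binds nicotinic acetylcholine receptors, was at 98.3, 93.7 and 89.5 CPM in CDC, 42.7, 47.7 and 49.8 CPM in pEpiC and 14.5, 16.7 and 14.0 CPM in the clone. It fell in pEpiC (log2 -1.05) and further in the clone (-2.65), so its order of kinds was that of neither Ly6k nor Ly6a. Lynx1 had the CPM order of Ly6c1, for which no direction between pEpiC and CDC is given. Arc, a gene best known from neurons, rose in the clone against CDC (2.02), while its value for pEpiC against CDC was 0.54 (adjusted p = 0.0912, edgeR). Jrk and Them6 fell in pEpiC against CDC (-0.93 and -0.98) and had -0.19 and -0.06 in the clone, which did not pass the test. Of the non-members tested, 3 of 4 fell and none rose in pEpiC against CDC, 2 rose and 1 fell of 5 in the clone against CDC, and 4 rose and 1 fell of 5 in the clone against pEpiC. The shares of all genes are those given above for the Ly6 family. Ly6f is among the genes that rose in the clone, and it passed the filter only through the clone, so its direction was fixed. Leaving Ly6f aside, Arc rose and Lynx1 fell in both comparisons of the clone. In pEpiC against CDC, Lynx1, Jrk and Them6 fell while Ly6a and Ly6e rose. The few tested neighbours thus had no single direction with the Ly6 members in any comparison.

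**Figure D3:**
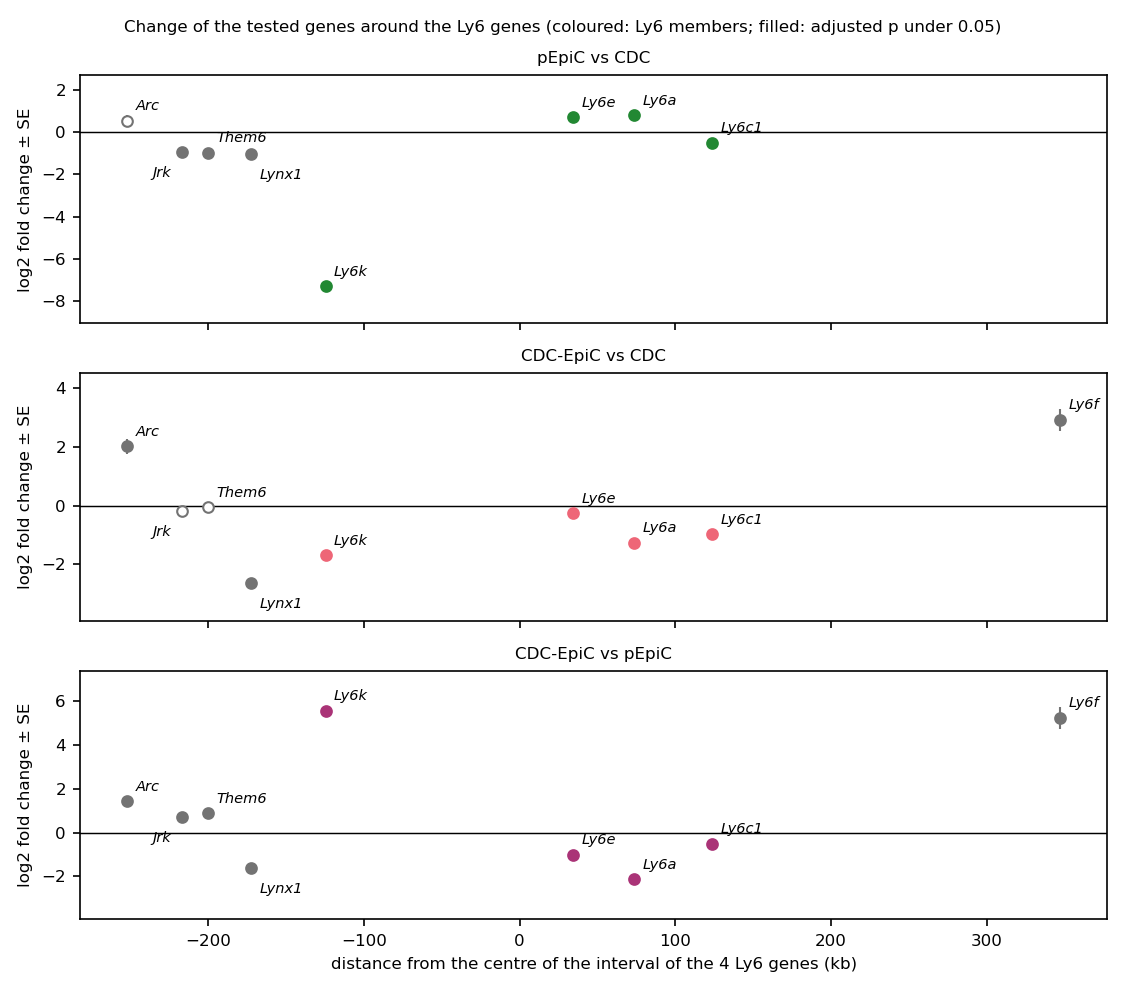
Fitted log2 fold change (± SE) of the tested genes within 500 kb of the 4 Ly6 genes, by distance in kb from the centre of their interval, 1 panel per comparison; coloured points are Ly6 members, grey points other genes, and filled points have an adjusted p under 0.05 in edgeR. Ly6k lies at -7.29 for pEpiC against CDC while Ly6a and Ly6e lie above 0, and the fitted value of Ly6f depends on the prior count because pEpiC has 1 count or none per library.

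Thy1 was the most abundant of the 10 genes in CDC per length (296 TPM). It was at 315, 287 and 270.1 CPM in CDC, at 96.7, 99.8 and 101 CPM in CDC-EpiC and at 114, 117 and 135 CPM in pEpiC. CDC stood apart, and the libraries of the clone lay just under those of pEpiC. Thy1 was 2.46-fold lower in pEpiC than in CDC (log2 -1.30 ± 0.09 SE, adjusted p = 3.54e-07, edgeR) and 2.95-fold lower in the clone than in CDC (-1.56 ± 0.08, adjusted p = 1.59e-10, edgeR). The clone and pEpiC differed by 1.23-fold (-0.30 ± 0.07, adjusted p = 0.00173, edgeR). T cells are another source of Thy1. Of 9 listed T cell markers 8 were in the table, and their sum was 1.01 to 1.13 CPM in CDC, 1.28 to 1.81 CPM in the clone and 3.53 to 4.90 CPM in pEpiC. Most of the pEpiC sum was Cd28, a costimulatory receptor, with 75, 48 and 73 counts, against 0 in every CDC library and 2, 1 and 2 in the clone (at least 62.4-fold higher in pEpiC than in CDC). Cd3e was at 0 counts in all but CDC library 1, which had 2. Fibroblasts are a source of Thy1 as well. The 10 fibroblast markers listed summed to 9493 to 12586 CPM in CDC, 6593 to 8099 CPM in the clone and 32065.7 to 34930.5 CPM in pEpiC. Against CDC, all 10 rose in pEpiC (39.8% of all genes), and 3 rose and 5 fell in the clone (34.2% and 34.6%). The part of fibroblasts or T cells in the Thy1 differences was not tested.

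By the difference of log2(CPM + 1), centred per gene, over the 9 libraries, the genes most like Thy1 among 10693 genes were Camk2n2, Hk1 and Prss23, with root-mean-square differences of 0.0840, 0.0871 and 0.0872 in log2 units. For Ly6k the nearest were Fgf23 (0.360), Anxa8 (0.608) and Foxa2 (0.726). Fgf23, a hormone of phosphate balance best known from bone, averaged 115 CPM in CDC, 31.3 CPM in CDC-EpiC and 0.101 CPM in pEpiC. Anxa8 averaged 128, 25.9 and 2.80 CPM and Foxa2 40.8, 44.2 and 0.145 CPM in the same order. In this measure the 3 nearest genes were closer to Thy1 than those of Ly6k were to it. Such differences tend to be larger for a gene that, like Ly6k, varies more between kinds, so they do not rank the likenesses. This likeness rests on 9 libraries of 3 kinds only and is a description.

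Thy1 binds integrins and syndecan-4 on neighbouring cells and signals through Src kinases, and its partners did not keep one direction. Of 11 listed partners, 7 rose and 2 fell in pEpiC against CDC (39.8% and 38.5% of all genes). In the clone against CDC 3 rose and 5 fell of 10 (34.2% and 34.6%). In the clone against pEpiC 2 rose and 7 fell of 11 (40.3% and 41.5%). The median log2 changes were 0.61, -0.12 and -1.06 in that order, where all genes had 0.02, 0.00 and -0.02. Itgam, also a macrophage marker, passed the filter only through pEpiC, so its direction was fixed. That limits these counts and medians. Itgb5 was at 634 to 655 CPM in pEpiC, 235 to 249 CPM in CDC and 18.7 to 19.3 CPM in the clone. Itgav, which pairs with it, moved much less (log2 0.31 for pEpiC and -0.51 for the clone against CDC). Itgb3, the chain of the integrin best known to bind Thy1, was at 7.85 to 11.7 CPM throughout, and its value for pEpiC against CDC was -0.04 (adjusted p = 0.791, edgeR). Sdc4 rose in the clone against CDC (0.98) and against pEpiC (2.23). The kinase gene Fyn fell in the clone against both (-1.95 and -2.74).

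Nt5e separated pEpiC from the other two kinds. It was at 53.7, 54.8 and 64.7 CPM in CDC, at 56.4, 53.4 and 61.2 CPM in CDC-EpiC and at 1.78, 1.70 and 1.97 CPM in pEpiC, on 41, 39 and 45 counts. The libraries of CDC and the clone overlapped, and both lay far above pEpiC. Nt5e was 32.7-fold lower in pEpiC than in CDC (log2 -5.03 ± 0.11 SE, adjusted p = 3.05e-10, edgeR) and 31.3-fold higher in the clone than in pEpiC (4.97 ± 0.09, adjusted p = 7.59e-11, edgeR). For the clone against CDC the difference was -0.03 ± 0.09 (adjusted p = 0.809, edgeR), which did not pass the test.

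The promoters of Nt5e, Cd34 and Cd82 are shown because these genes carry the clearest differences between kinds among the 6 of 10 members with an entry in the RefSeq promoter table (GRCm38.p6), namely Cd34, Cd82, Kit, Ly6c1, Mcam and Nt5e. Each runs from 250 bases before to 50 bases after the gene start, 5′ to 3′ on the gene's strand. Of 5 motifs searched on both strands (TATA box, CCAAT box, GC box, E-box and AP-1 site), matches are in capitals. The window of Nt5e lies at chr9:88327359-88327658, plus strand, with 71.0% G and C and 23 CpG.
Nt5e promoter: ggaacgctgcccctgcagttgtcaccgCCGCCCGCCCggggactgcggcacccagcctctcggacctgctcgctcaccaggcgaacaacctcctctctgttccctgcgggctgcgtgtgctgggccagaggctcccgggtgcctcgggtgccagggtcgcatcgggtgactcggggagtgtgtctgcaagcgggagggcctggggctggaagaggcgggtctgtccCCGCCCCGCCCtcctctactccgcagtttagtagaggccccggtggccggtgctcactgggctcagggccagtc
Its 4 GC boxes read on the reverse strand and overlap in pairs, starting 223, 219, 24 and 19 bases before the gene start. Among 32851 promoters of the same length the median was 52.7% G and C and 7 CpG, and 35.7% held a GC box, spelled GGGCGG. The TATA box, spelled TATAAA, was in 13.6% of them. The CCAAT box was in 37.4%. The E-box of the Snail and Zeb type, spelled CACCTG, was in 20.2% and the AP-1 site, spelled TGACTCA, in 5.20%. These matches are letters in a window and were not tested for binding.

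Around Nt5e, the genes that feed and drain extracellular adenosine differed too. Of 24 listed beside Nt5e, 19 were tested for pEpiC against CDC, and 11 rose and 4 fell (39.8% and 38.5% of all genes). Entpd1 (CD39), which makes AMP from ATP one step before Nt5e, had 43, 33 and 33 counts in pEpiC, 1, 3 and 0 in CDC and 0 in the clone (26.04 times the CDC sum, exact 95% interval 9.88 to 97.3). Entpd1 passed the filter only through pEpiC, so its direction was fixed, which limits the counts of this list. Enpp1, another source of AMP, was at 40.3, 41.4 and 38.7 CPM in pEpiC against 1.48, 1.18 and 1.77 CPM in CDC (log2 4.72) and 2, 1 and 1 counts in the clone. Entpd1 and Enpp1 were thus highest where Nt5e was lowest. Values of the other Entpd and Enpp genes on the list are not given here. Macrophages express Entpd1, and their markers were also highest in pEpiC, most so in library 1, whose Entpd1 count was the highest; their part was not tested. Alpl, a phosphatase that also acts on AMP, had the clone on top instead, with 33.7, 36.3 and 33.3 CPM, against 10.3, 8.89 and 10.5 CPM in CDC and 1.73, 1.57 and 1.18 CPM in pEpiC. It fell in pEpiC (-2.77) and rose in the clone (1.79) against CDC.

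Of the adenosine list without Nt5e, 3 genes rose and 10 fell of 16 tested in the clone against CDC (34.2% and 34.6% of all genes). In the clone against pEpiC 4 rose and 14 fell of 19 (40.3% and 41.5%). The median log2 changes of these genes were 1.38 for pEpiC against CDC, -0.61 for the clone against CDC and -2.64 for the clone against pEpiC. All genes had 0.02, 0.00 and -0.02 in the same order. Entpd1, and P2rx7 against CDC, passed the filter only through pEpiC, and Enpp1 in the clone's comparisons only through the other kind. Their directions there were fixed, which limits these counts and medians. Ada, which degrades adenosine, was at 9.69 to 12.7 CPM in CDC, 8.75 to 10.5 CPM in pEpiC and 1.41 to 1.73 CPM in the clone, where it fell against CDC (log2 -2.88). P2ry2, a receptor for extracellular nucleotides, fell there by a like amount (-2.78). P2rx7, an ATP-gated channel also known from macrophages, was at 17.9 to 19.8 CPM in pEpiC and at 0.181 to 0.231 CPM in CDC (6.37). The transporter gene Slc29a1, which carries adenosine into cells, fell in the clone (-0.63) and in pEpiC (-1.54) against CDC. Dpp4 (CD26), a surface peptidase on the same list, was 30.9-fold lower in the clone than in pEpiC (-4.95).

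Genes that build and attach GPI anchors, which Thy1, Nt5e and most Ly6 proteins need, were examined as a list of 30. Of 29 tested for pEpiC against CDC, 7 rose and 12 fell (39.8% and 38.5% of all genes), with a median log2 change of -0.17. In the clone against CDC 10 rose and 8 fell of 28 (34.2% and 34.6%). Against pEpiC 14 rose and 9 fell of 29 in the clone (40.3% and 41.5%). The median differences were 0.06 and 0.17. Piga, which is needed for the first step of anchor synthesis, fell in pEpiC (-1.31) and in the clone (-1.52) against CDC. Pgap1, which remodels the anchor after attachment, fell in both too (-1.85 and -0.96). The transamidase subunits split: Pigt rose (0.83) and Pigk fell (-1.14) in the clone against CDC. Members with such an anchor did not share a direction: in pEpiC against CDC, Ly6k fell and Ly6a rose.

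Cd34 and Cd82 were the members that rose in the clone. Cd34, the sialomucin of blood progenitors, endothelium and some fibroblasts, was at 62.3, 59.8 and 66.4 CPM in CDC, 195, 185 and 197 CPM in CDC-EpiC and 19.5, 18.3 and 17.4 CPM in pEpiC. Its order was CDC-EpiC, CDC, pEpiC, with wide gaps and no overlap. Cd34 was 3.05-fold higher in the clone than in CDC (log2 1.61 ± 0.08 SE, adjusted p = 6.17e-11, edgeR), 3.52-fold lower in pEpiC than in CDC (-1.82 ± 0.07, adjusted p = 7.88e-09, edgeR) and 10.4-fold higher in the clone than in pEpiC (3.38 ± 0.06, adjusted p = 5.55e-11, edgeR). Its promoter window (chr1:194938571-194938870, plus strand) has 50% G and C, 7 CpG and none of the 5 motifs.
Cd34 promoter: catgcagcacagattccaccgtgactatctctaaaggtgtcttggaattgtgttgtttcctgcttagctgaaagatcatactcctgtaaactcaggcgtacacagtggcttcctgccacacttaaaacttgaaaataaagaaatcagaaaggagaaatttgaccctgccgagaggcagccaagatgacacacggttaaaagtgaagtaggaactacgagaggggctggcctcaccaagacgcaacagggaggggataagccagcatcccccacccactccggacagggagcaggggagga
Endothelial cells are another source of Cd34. The 13 endothelial markers listed summed to 16.2 to 20.6 CPM there, 21.1 to 22.77 CPM in CDC and 87.3 to 99.4 CPM in pEpiC, where Cd34 was lowest. In the clone Cdh5 was at 0 counts in every library and Pecam1 at 2, 1 and 0. Only 4 of the 13 were tested for the clone against CDC. Among them Tek, an angiopoietin receptor, had 25, 19 and 19 counts in the clone against 3, 3 and 2 in CDC. It passed the filter only through the clone and had to be called higher there. Tek was higher still in pEpiC, where Cd34 was lowest (log2 -4.23 for the clone against pEpiC). Egfl7 rose too (log2 0.33, adjusted p = 0.0497, edgeR), although its libraries overlapped. Ptprb fell (-0.64), and Kdr did not pass the test (-0.20). For the clone against pEpiC 1 rose and 5 fell of 6 tested (40.3% and 41.5% of all genes). For pEpiC against CDC 5 rose and 1 fell of 6 (39.8% and 38.5%). The part of endothelial cells in the Cd34 differences was not tested.

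The sialomucins related to Cd34 did not all share its order of kinds. Podxl, podocalyxin, was at 203, 265 and 259 CPM in the clone, 9.36, 10.8 and 11.7 CPM in CDC and 0.824, 0.740 and 1.40 CPM in pEpiC. It rose in the clone against CDC (log2 4.51) and fell in pEpiC (-3.46), in the order seen for Cd34 but with larger steps. Podxl2 had that order as well (0.85 and -0.83). Cd164 had the opposite one, with -0.32 and 0.41. These were the 3 tested of the 4 genes listed beside Cd34, and the medians of their log2 changes were 0.85 for the clone against CDC and -0.83 for pEpiC against CDC.

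Cd82, a tetraspanin that organises integrins and growth factor receptors in the membrane, had the same order as Cd34. Its levels were 62.8, 62.1 and 66.7 CPM in CDC, 189.9, 210.4 and 209.8 CPM in CDC-EpiC and 39.3, 35.9 and 35.9 CPM in pEpiC. The clone was again the highest and pEpiC the lowest, with no overlap. Cd82 rose 3.17-fold in the clone against CDC (log2 1.67 ± 0.08 SE, adjusted p = 5.10e-11, edgeR), was 1.78-fold lower in pEpiC than in CDC (-0.83 ± 0.06, adjusted p = 8.40e-07, edgeR) and was 5.48-fold higher in the clone than in pEpiC (2.45 ± 0.06, adjusted p = 3.93e-10, edgeR). Its promoter window (chr2:93462901-93463200, minus strand) has 60.7% G and C, 16 CpG and 2 GC boxes, one starting 26 bases before the gene start and one at the start itself.
Cd82 promoter: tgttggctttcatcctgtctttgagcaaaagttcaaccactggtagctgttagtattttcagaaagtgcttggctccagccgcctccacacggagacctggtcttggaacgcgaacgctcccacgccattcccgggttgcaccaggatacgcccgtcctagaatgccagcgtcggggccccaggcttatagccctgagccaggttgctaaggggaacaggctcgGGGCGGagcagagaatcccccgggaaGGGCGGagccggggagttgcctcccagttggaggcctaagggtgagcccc
Of the 3 windows shown, those of Nt5e and Cd82 hold a GC box and that of Cd34 does not.

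Other tetraspanins showed that the order of Cd82 was not common to the family. Of 26 listed, 9 rose and 12 fell of 25 in pEpiC against CDC (39.8% and 38.5% of all genes). In the clone against CDC 10 rose and 11 fell of 23 (34.2% and 34.6%). In the clone against pEpiC 14 rose and 7 fell of 25 (40.3% and 41.5%). The median log2 changes were -0.25, 0.25 and 0.27. Upk1b, a uroplakin of urothelium and mesothelium, was at 154 to 164 CPM in CDC, 1066 to 1240 CPM in the clone and 49.1 to 59.4 CPM in pEpiC, which is the order of Cd82. Tspan8 (log2 3.92) and Tspan7 (4.52) rose in the clone against CDC too. Cd9 (-0.72), Cd63 (-0.24) and Cd81 (-0.35), the widespread tetraspanins of exosomes, fell there by little. Tspan6 fell in the clone (-2.39) and rose in pEpiC (1.04) against CDC. Cd53, a tetraspanin of white blood cells, had 700, 291 and 337 counts in pEpiC, with its highest value in library 1 as for Ptprc.

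Kit was close to the limit of detection in all kinds. It had 17, 17 and 18 counts in CDC (0.784, 0.771 and 0.815 CPM), 33, 30 and 36 counts in pEpiC (1.43, 1.31 and 1.58 CPM) and 1, 1 and 2 counts in CDC-EpiC. The libraries of the 3 kinds did not overlap. By summed counts, CDC had 13.3 times as much Kit as the clone (52 against 4 counts, exact 95% interval 4.89 to 50.5) and pEpiC 24.2 times (99 against 4, 9.14 to 90.4), both intervals covering counting error only. The fit called Kit lower in the clone than in CDC (adjusted p = 7.76e-06, edgeR) and than in pEpiC (adjusted p = 1.88e-06, edgeR). Between pEpiC and CDC the change was 0.81 ± 0.23 in log2 (1.76-fold, adjusted p = 0.00805, edgeR), and DESeq2 gave an adjusted p of 0.0755. Kit passed the filter on low counts in the comparisons of the clone only through the other kind.

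Mast cells and blood progenitors carry Kit, and one of their markers had its order of kinds, Cpa3. Of 11 markers listed, 9 were in the table, with sums of 11.4 to 12.04 CPM in CDC, 11.6 to 12.9 CPM in the clone and 8.36 to 9.97 CPM in pEpiC, mostly Gata2. The mast cell genes Cpa3 and Mcpt4 were at 0 counts in all libraries of the clone. In CDC, Cpa3 had 5, 5 and 6 counts and Mcpt4 26, 26 and 40. In pEpiC the values were 11, 19 and 23 for Cpa3 and 9, 17 and 10 for Mcpt4. Tpsb2 had at most 1 count in any library. Their part in the Kit differences was not tested.

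Kitl, the ligand, was more abundant per length than its receptor, with 30.1 TPM in CDC, 30.8 TPM in the clone and 11.8 TPM in pEpiC, and differed in another way. It was at 95.2, 90.8 and 96.0 CPM in CDC, 94.8, 88.2 and 90.9 CPM in the clone and 28.5, 25.7 and 26.3 CPM in pEpiC. It fell in pEpiC against CDC (log2 -1.85, adjusted p = 3.92e-09, edgeR), and its value for the clone against CDC was -0.05 (adjusted p = 0.559, edgeR). The kind with the most Kit thus had the least Kitl, and the Kitl libraries of CDC and the clone overlapped. Of 14 genes for the ligand and signalling of Kit, 11 rose and 2 fell in pEpiC against CDC (39.8% and 38.5% of all genes). In the clone against CDC 3 rose and 7 fell (34.2% and 34.6%). In the clone against pEpiC 2 rose and 11 fell (40.3% and 41.5%). The median log2 changes were 0.66, -0.14 and -0.87, where all genes had 0.02, 0.00 and -0.02. The adaptor gene Gab2 (-2.69) and the kinase genes Fyn (-1.95) and Lyn (-1.04) fell in the clone against CDC. Mitf, a transcription factor that acts downstream of Kit in melanocytes and mast cells, was at 29.8 to 32.2 CPM in pEpiC, 3.55 to 5.61 CPM in CDC and 1.19 to 1.498 CPM in the clone. Adam17, a protease that sheds Kit, rose in pEpiC (0.86) and in the clone (0.68) against CDC.

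Mcam had low levels throughout. It was at 3.41, 4.22 and 3.40 CPM in CDC, 1.37, 1.68 and 1.68 CPM in CDC-EpiC and 2.90, 2.31 and 3.11 CPM in pEpiC, which stand for 31 to 93 counts. The clone lay lowest, and the gap between CDC and pEpiC was narrow. Mcam fell in the clone against CDC (log2 -1.22 ± 0.19 SE, 2.34-fold lower, adjusted p = 3.97e-05, edgeR) and was 1.76-fold lower in the clone than in pEpiC (-0.82 ± 0.20, adjusted p = 0.00319, edgeR). For pEpiC against CDC the value was -0.45 ± 0.18 (adjusted p = 0.0396, edgeR). It passed in 9 of 18 other settings, was lost without CDC library 1 (adjusted p = 0.0519, edgeR), CDC library 2 (0.136) or pEpiC library 2 (0.144), and turned to 0.04 on the TPM scale.

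Mural cells, which carry Mcam in tissue, left a different pattern. The 10 mural markers summed to 307 to 362 CPM in CDC, 67.3 to 82.6 CPM in the clone and 1341 to 1403 CPM in pEpiC, most of it Pdgfrb, which fibroblasts also express. Of these markers Rgs5 had 5 to 12 counts in CDC, 8 to 9 in pEpiC and 0 or 1 in the clone, and Cspg4 0 to 4 in CDC, 62 to 86 in pEpiC and 1 to 3 in the clone. Their part in the Mcam differences was not tested. Of 13 genes for partners and ligands of Mcam, 6 rose and 5 fell of 11 in pEpiC against CDC (39.8% and 38.5% of all genes). In the clone against CDC 3 rose and 7 fell of 10 (34.2% and 34.6%). The median log2 changes were 0.87 and -0.85. Lama4, the laminin chain that Mcam binds, was at 108, 84.2 and 117 CPM in CDC, 49.4, 60.6 and 56.6 CPM in the clone and 222, 217 and 243 CPM in pEpiC. Wnt5a, a further ligand, rose in the clone (log2 3.33) and in pEpiC (2.45) against CDC. Tinagl1, a matrix protein, fell in both (-1.24 and -3.05).

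Compared per length, in TPM, a unit that also divides by transcript length, the genes ranked differently in each kind. In CDC the order was Thy1 (296 TPM), Ly6k (235), Ly6e (127), Ly6a and Cd82 (64.3 each), Cd34 (43.6), Nt5e (28.3), Ly6c1 (21.89), Mcam (2.23) and Kit (0.267). In CDC-EpiC it was Cd82 (216 TPM), Cd34 (141), Ly6e (112), Thy1 (106), Ly6k (77.3), Nt5e (29.4), Ly6a (28.1), Ly6c1 (11.8), Mcam (1.01) and Kit (0.0233). In pEpiC it was Ly6e (294 TPM), Thy1 (171), Ly6a (160.2), Cd82 (51.6), Ly6c1 (21.96), Cd34 (17.5), Mcam (2.32), Ly6k (2.11), Nt5e (1.22) and Kit (0.670). The leading genes thus went from Thy1 and Ly6k in CDC to Cd82 and Cd34 in the clone and to Ly6e and Thy1 in pEpiC. Neighbours whose libraries overlapped were Ly6a and Cd82 in CDC, Ly6e and Thy1 as well as Nt5e and Ly6a in the clone, and Thy1 and Ly6a as well as Mcam and Ly6k in pEpiC. Kit was last in all 3 kinds.

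The counts of members called are read against how many of all genes were called, since the 3 kinds differ broadly. For pEpiC against CDC, 10 of 10 members passed the test, against 78.3% of 13526 genes, and 10 had libraries that did not overlap, against 81.5%. Of them 3 were called higher (39.8% of all genes) and 7 lower (38.5%). Against a 1.5-fold change, 5 passed (41.0% of all genes), namely Thy1, Ly6k, Cd34, Cd82 and Nt5e, all lower in pEpiC. The share of calls was near that of all genes, and the median absolute log2 change was 0.82 for the members and 0.61 for all genes.

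For CDC-EpiC against CDC, 9 of 10 members passed (68.8% of 12976 genes) and 9 did not overlap (72.1%). Called higher were 2, Cd34 and Cd82 (34.2% of all genes), and called lower were 7, Thy1, Mcam, Kit and the 4 Ly6 genes (34.6%). Against a 1.5-fold change 8 passed (28.2%), all of the called genes but Ly6e. The median absolute log2 change was 1.41 for the members and 0.44 for all genes. The median change of the members was -1.10, and that of all genes 0.00. Kit, with 1, 1 and 2 counts in the clone, passed the filter only through CDC and had to differ. Without it 8 of 9 were called, 2 higher and 6 lower, 8 did not overlap, 7 passed against a 1.5-fold change, and the median change was -0.97.

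For CDC-EpiC against pEpiC, 10 of 10 members passed (81.9% of 13547 genes) and 10 did not overlap (84.0%). Higher in the clone were 4, Ly6k, Nt5e, Cd34 and Cd82 (40.3% of all genes), and lower were 6, Thy1, Ly6a, Ly6e, Ly6c1, Kit and Mcam (41.5%). Against a 1.5-fold change 7 passed (48.6%), without Thy1, Ly6c1 and Mcam. The median absolute log2 change was 2.29 for the members and 0.71 for all genes. Kit passed the filter here only through pEpiC. Without it 9 of 9 were called, 4 higher and 5 lower, 6 passed against a 1.5-fold change, and the median absolute change was 2.12. The 3 comparisons share libraries pairwise, so their counts are not independent of each other.

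**Figure D4:**
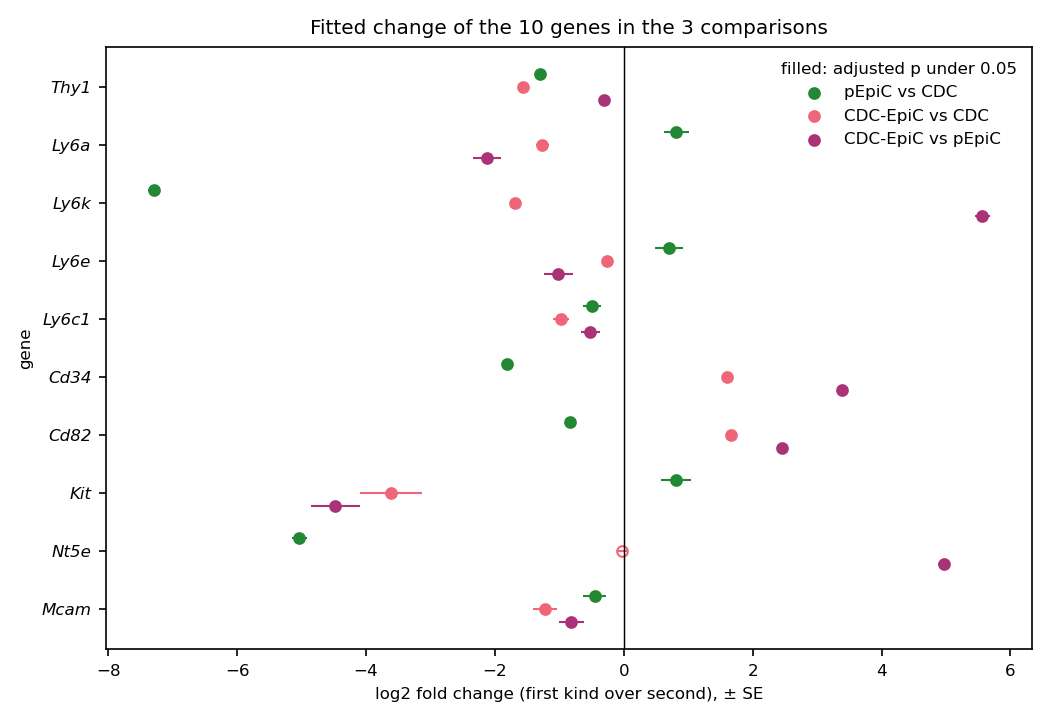
Fitted log2 fold change (± SE) of the 10 genes in the 3 comparisons, first kind over second; filled points have an adjusted p under 0.05 in edgeR. Cd34 and Cd82 lie above 0 for both comparisons of the clone, Ly6k and Nt5e lie at -7.29 and -5.03 for pEpiC against CDC, Nt5e is the open point at -0.03, and the fitted values of Kit against the clone depend on the prior count.

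Other stromal surface markers gave the members a setting. Of 20 listed, 13 rose and 4 fell of 19 tested in pEpiC against CDC (39.8% and 38.5% of all genes). In the clone against CDC 3 rose and 11 fell of 15 (34.2% and 34.6%). In the clone against pEpiC 1 rose and 18 fell of 19 (40.3% and 41.5%). The median log2 changes were 1.98, -1.05 and -2.70, where all genes had 0.02, 0.00 and -0.02. Some of the list, Pdpn and Cspg4 among them, passed the filter only through pEpiC. Their directions were thus fixed, which limits these counts and medians. Pdpn, podoplanin, was at 285, 284 and 303 CPM in pEpiC and at 0.0442 to 0.363 CPM in the other kinds. Anpep (CD13) was at 141 to 168 CPM in pEpiC, 4.58 to 5.70 CPM in CDC and 3.23 to 4.27 CPM in the clone. Cd44, the hyaluronan receptor, had the order of Thy1, with 159 to 166 CPM in CDC, 66.1 to 67.6 CPM in pEpiC and 27.5 to 28.1 CPM in the clone. Eng (CD105), which is stained beside Thy1 on stromal cells, was at 398 to 474 CPM in CDC, 351 to 407 CPM in the clone and 296 to 297 CPM in pEpiC. Most of the tested genes of this list were thus higher in pEpiC than in CDC, some with a fixed direction, while Thy1, Nt5e, Cd34 and Cd82 were lower there.

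How far each value depends on the settings differed between genes. Ly6k, Nt5e, Cd34, Cd82 and Thy1 passed in 18 of 18 other settings for pEpiC against CDC, in all with the same direction, while Ly6a passed in 17, Ly6e in 16, Ly6c1 and Kit in 15 and Mcam in 9. For Ly6a the log2 change of pEpiC against CDC ranged from 0.51 to 1.67 over these settings, for Ly6e from 0.32 to 1.15. Both genes were higher in pEpiC in every one of them.

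**Figure D5:**
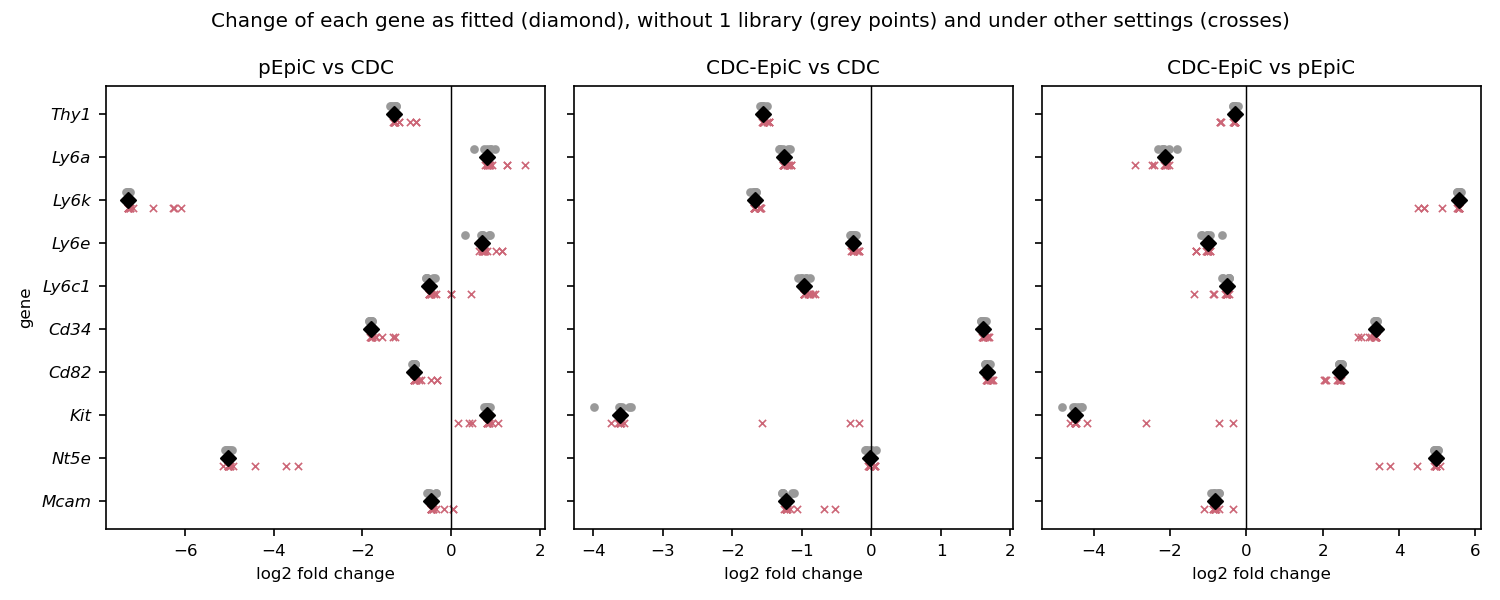
Log2 fold change of each gene in the 3 comparisons as fitted (black diamond), with 1 library left out (grey points) and under other tools, normalizations, filters and units, or with a block by library number (crosses). The marks of Kit in the comparisons of the clone spread widest, since log2(TPM + 1) and log2(FPKM + 1) understate changes of low genes. Those of Nt5e and Ly6k for pEpiC against CDC reach up to -3.45 and -6.11, those of Ly6a reach 1.67, and in the clone against pEpiC those of Nt5e go down to 3.48 and of Ly6c1 to -1.38. The marks of Ly6c1 and Mcam for pEpiC against CDC reach both sides of 0.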

How the data were processed

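RNA was extracted from CDC, CDC-EpiC and pEpiC, selected with oligo(dT), primed with random hexamers and sequenced as paired reads on a BGISEQ-500. The submitters' processing notes name mm10, HISAT2 2.0.4, Bowtie2 2.2.5, RSEM 1.2.12 and DESeq2 1.4.5, and the annotation and use of strand are not given in the sources used here. The authors deposited expected counts per library, that is estimated reads per gene, of which 30.3% were not whole. FPKM (per transcript length and library total) and TPM (with a fixed sum per library) were deposited by the authors as well. The authors' means were not used.

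Expected counts were rounded. For each pair of kinds the 6 libraries (3 columns per kind, taken as replicates since the labels speak of separate extracted samples) were fitted in edgeR 4.0.16 (R 4.3.3) with filterByExpr (minimum count 10, minimum total 15), TMM and the quasi-likelihood F-test (glmQLFit, glmQLFTest). Benjamini-Hochberg adjustment covered all genes tested, with a threshold of 0.05, and SE is the log2 change divided by the root of F. Changes against a kind with at most 3 counts in every library are given as counts, with the exact 95% interval of the ratio. Intervals and floors cover counting error only, since PCR copies are not separate molecules. Windows, positions and promoters came from the reference given (GENCODE M21 transcripts, RefSeq, GRCm38.p6). Alternatives were DESeq2 1.42.0, limma 3.58.1 on log2(FPKM + 1), log2(TPM + 1) and log2(TPM + 0.1), RLE factors or library size only, dropping the filter or asking for 10 counts in each library, one fit to the 9 libraries together, a length offset, a test against a 1.5-fold change, each library left out and, added after the data were seen, a block by library number. The main fit and some of the alternatives were tested on data simulated for pEpiC against CDC, with few changed genes in balanced directions. That test cannot check the fits under changes as broad as those between these kinds. Counts over a list leave out the member it was built around, the Ly6 family excepted.

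The members and lists were chosen with earlier results of these data known. Beside members, the text names fixed partners and, per list and comparison, at most 4 of the largest changes past the threshold with at least 10 CPM in the higher kind. Lypd6, Eng and single markers of other cell types were named after their values were seen. Likeness was the smallest root-mean-square difference in log2(CPM + 1), centred per gene, over the 9 libraries, among genes of at least 5 CPM.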

Additional observations from a re-analysis of the deposited data

How the results depend on the processing

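The columns number the libraries 1 to 3 in each kind, without saying what a number shares. Same-numbered libraries of 2 kinds had deviations from their kinds' means that correlated by -0.10 to 0.19 over 10366 genes, and in no comparison above 0.1 for all 3 numbers, so the numbers were not taken as pairs. A replicate block by library number, added after seeing the data, called 10, 9 and 10 members and 10604, 8831 and 11096 genes for pEpiC against CDC, the clone against CDC and the clone against pEpiC, and it changed no member's call. For single genes, 161 of 180 alternatives kept direction and side of the threshold for pEpiC against CDC, 169 of 179 for the clone against CDC and 176 of 179 for the clone against pEpiC. Tested against a 1.5-fold change, 5 members were called for pEpiC against CDC (Ly6a, Ly6e, Ly6c1, Kit and Mcam were lost), and 5549, 3664 and 6578 of all genes in the 3 comparisons in the order above; fewer calls follow from that test's construction. With each library left out, 9 to 10, 9 to 9 and 10 to 10 members were called, and 10073 to 10838, 8248 to 9046 and 10760 to 11076 genes. DESeq2 called 7 members and 10382 of 17966 genes for pEpiC against CDC, without Ly6e (adjusted p = 0.0556), Kit (0.0755) and Mcam (0.128). The sign turned for Ly6c1 in pEpiC against CDC with the length offset (0.46), and TPM gave it 0.00 with an adjusted p of 0.985 in limma. It turned for Mcam in the same comparison with log2(TPM + 1) and log2(TPM + 0.1) (0.036 and 0.049). For Nt5e in the clone against CDC, never called, log2 values were 0.034 with library size alone, 0.035 with FPKM, 0.055 and 0.057 with the TPM scales, and -0.090 to 0.065 with each library left out. The length offset gave Kit 0.48 for pEpiC against CDC (adjusted p = 0.0824, edgeR). In the clone against CDC, Ly6e was also lost with TPM (adjusted p = 0.0608 and 0.0627, limma). The cause of these was not tested. TPM moved the median of all genes to 0.41 for pEpiC against CDC and to -0.33 for the clone against pEpiC, with 74.5% of calls higher against 50.8% in the first and 32.9% against 49.3% in the second. Library size alone moved the median to 0.13 for pEpiC against CDC. With at least 10 counts in every library, Kit was not tested in the comparisons of the clone. Depth limits Kit, Mcam and, in pEpiC, Ly6k and Nt5e.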
